A study of Mus musculus with 12 samples.

Results

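Inflammatory cytokines and the NF-kB pathway were followed through 9 genes of the deposited table of 27825 genes: Il1b, Il1rn and Il1r1 of the interleukin-1 system, Tnf and its receptor Tnfrsf1a, Il6, Csf1, and the NF-kB inhibitors Nfkbia and Tnfaip3. The genes were chosen by name, and all 9 were found and had levels high enough to be tested. The study sequenced RNA of endothelial cells, the cells that line vessels, from male ROSA26-eYFP+/+ Cdh5-CreERT2+ mice. All mice, controls included, ate food with tamoxifen from 6 weeks of age for 2 weeks, which turns on the yellow fluorescent protein in cells in which the Cdh5 promoter drives the recombinase. From 8 weeks of age they ate normal chow (NC, 5.8% fat) or a high fat diet (HFD, 60% fat), and tissue was taken after 12 to 13 weeks of it. Mesentery (Mes), the sheet of tissue holding the gut vessels, and the epididymal fat pad (Epi) were digested with actinomycin D, a blocker of transcription, and the fluorescent cells were sorted. This gave 4 groups, NC Mes, HFD Mes, NC Epi and HFD Epi, of 3 libraries each, called A, B and C in the sample titles, and each library holds cells pooled from 6 mice. The protocol mentions 2 independent replicates and the descriptions number the libraries 50 to 53, 87 and 88. Libraries of the same group may thus come from the same experiment, and the p-values measure the spread between these libraries. Each number is given to a mesenteric and an epididymal library of the same diet, so these may come from the same mice.

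Interleukin-1 beta, tumor necrosis factor (TNF) and interleukin-6 are cytokines that myeloid cells, and to a lesser degree vessel walls, release in inflamed tissue. The receptors of interleukin-1 and TNF activate IkB kinases, which mark the inhibitor IkB-alpha (made from Nfkbia) for destruction and so free NF-kB to enter the nucleus. NF-kB then raises cytokines, adhesion molecules and its own inhibitors, among them Nfkbia and Tnfaip3, which close a negative feedback loop. In obese adipose tissue macrophages are the best known source of these cytokines, and endothelial cells are known to respond to them.

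The upstream sequences show which of the 9 genes carry a consensus NF-kB motif next to their annotated start. RefSeq promoter entries (GRCm38.p6, an older build than the mm39 of the deposited data) matched 9 of 9 genes, and the 250 bases before each start were searched on both strands for the 10-letter NF-kB consensus. The motif was present in 3.90% of 32851 windows of the same length, and in 5 of the 13 windows of the 9 genes, 1 window each of Il6, Csf1, Nfkbia, Tnfaip3 and Il1r1; Il1rn has 3 annotated starts and Tnfaip3 and Il1r1 have 2 each. The windows of these 5 genes are printed because they hold a match, and that of Tnf because its levels differed most between the tissues. Each is written 5′ to 3′ on the gene's strand, with the NF-kB match in capitals, and Tnf has no match in this window. For Tnfaip3 and Il1r1, with 2 annotated starts each, the start at the higher coordinate is shown. On the minus strand of Tnfaip3 this is the upstream start, and on the plus strand of Il1r1 the downstream one.
Il6, chr5:30012864-30013113, plus strand: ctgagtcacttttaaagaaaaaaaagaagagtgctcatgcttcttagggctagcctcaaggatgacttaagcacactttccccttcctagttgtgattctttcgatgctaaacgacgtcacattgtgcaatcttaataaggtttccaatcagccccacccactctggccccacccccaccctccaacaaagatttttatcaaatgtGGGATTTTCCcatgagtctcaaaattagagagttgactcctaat
Csf1, chr3:107760470-107760719, minus strand: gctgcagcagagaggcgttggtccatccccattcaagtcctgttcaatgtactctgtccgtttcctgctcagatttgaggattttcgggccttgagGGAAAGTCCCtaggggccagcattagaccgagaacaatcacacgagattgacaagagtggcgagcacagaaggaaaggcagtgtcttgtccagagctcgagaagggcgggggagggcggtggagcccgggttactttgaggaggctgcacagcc
Nfkbia, chr12:55492648-55492897, minus strand: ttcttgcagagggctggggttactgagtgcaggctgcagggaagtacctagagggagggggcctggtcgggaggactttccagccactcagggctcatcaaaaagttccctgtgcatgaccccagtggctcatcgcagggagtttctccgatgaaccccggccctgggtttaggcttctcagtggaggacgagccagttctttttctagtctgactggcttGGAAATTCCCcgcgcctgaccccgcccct
Tnfaip3, chr10:19015411-19015660, minus strand: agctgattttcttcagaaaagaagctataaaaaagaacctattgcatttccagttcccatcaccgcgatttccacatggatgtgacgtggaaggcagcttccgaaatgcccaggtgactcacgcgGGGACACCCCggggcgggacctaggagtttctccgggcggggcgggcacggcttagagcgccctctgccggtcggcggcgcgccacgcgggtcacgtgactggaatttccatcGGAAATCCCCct
Il1r1, chr1:40266336-40266585, plus strand: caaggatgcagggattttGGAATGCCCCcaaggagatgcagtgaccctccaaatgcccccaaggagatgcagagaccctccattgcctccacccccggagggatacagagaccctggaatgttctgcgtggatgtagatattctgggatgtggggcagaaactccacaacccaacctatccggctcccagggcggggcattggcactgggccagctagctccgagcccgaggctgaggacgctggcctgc
Tnf, chr17:35202008-35202257, minus strand: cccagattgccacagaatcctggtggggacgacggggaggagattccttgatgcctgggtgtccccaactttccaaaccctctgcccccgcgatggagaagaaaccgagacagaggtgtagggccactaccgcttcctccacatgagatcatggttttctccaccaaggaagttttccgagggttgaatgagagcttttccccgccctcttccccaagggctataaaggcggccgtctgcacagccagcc
The Il6 match lay 44 to 35 bases before the start, the Nfkbia match 29 to 20 bases before it and the Csf1 match 154 to 145 bases before it. Tnfaip3 had 2 matches, 125 to 116 and 12 to 3 bases before its upstream start. A TATAAA element on the gene's strand, present in 7.59% of all windows, was found 31 to 26 bases before the start of Il1b and 29 to 24 bases before that of Tnf. It was also found 225 to 220 bases before the upstream start of Tnfaip3. TGANTCA, the core of AP-1 sites, was present in 6.75% of all windows and in those of Il6, Tnfaip3 and Il1rn. A match describes the letters in this window and was not tested for binding.

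Library totals ranged from 8348897 to 25397963 reads assigned to the listed genes, and 3 reads, the limit that a count of 0 allows, correspond to 2.12 to 4.22 normalized counts (reads divided by a size factor of the library). The endothelial marker list was high in every library: its 12 genes summed to 122021 to 179611 normalized counts in NC Mes, 115861 to 136191 in HFD Mes, 88301 to 106805 in NC Epi and 48463 to 93898 in HFD Epi. Transcripts of other cell types were also present. The 15 macrophage markers summed to 2283 to 12732 normalized counts in NC Mes, 7289 to 31616 in HFD Mes, 8108 to 100399 in NC Epi and 158343 to 402728 in HFD Epi. Among these markers Adgre1 was at 0 in NC Mes library B, and Cd68 was at 26841 in HFD Epi library C. The 8 pancreatic acinar markers summed to 25435 to 166035 in the mesenteric libraries and to at most 557.4 in the epididymal ones. In such bulk samples more cells of a type and more RNA per cell cannot be told apart, and the part of these transcripts in the results below was not tested except where values are given.

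Across the 9 genes, diet had no called effect in either tissue, while Tnf was higher and Il1r1 lower in NC Epi than in NC Mes. Changes are limma differences of log2(normalized count + 1), in which the added 1 shrinks the change of genes with few reads, and a gene is called at an adjusted p under 0.05 over all 22238 genes tested. In mesentery 0 of 9 genes were called for diet, against 0.0135% of all genes, and 2 had an unadjusted p under 0.05, against 6.15% of all genes. In epididymal fat 0 of 9 were called for diet, against 0.549% of all genes, and 1 had an unadjusted p under 0.05, against 6.94% of all genes. Between the tissues 2 of 9 were called on chow, against 12.8% of all genes, and 1 of 9 on the high fat diet, against 8.34% of all genes. The difference of the diet effects between the tissues was called for 0 of 9 genes, against 0.0045% of all genes, and 0 of 9 had an unadjusted p under 0.05, against 4.71%. edgeR and DESeq2 on the recovered reads also called 0 of the 9 genes in the 3 contrasts that involve a diet change. At these background shares a count of 0 among 9 genes marks nothing particular to them.

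**Figure D1:**
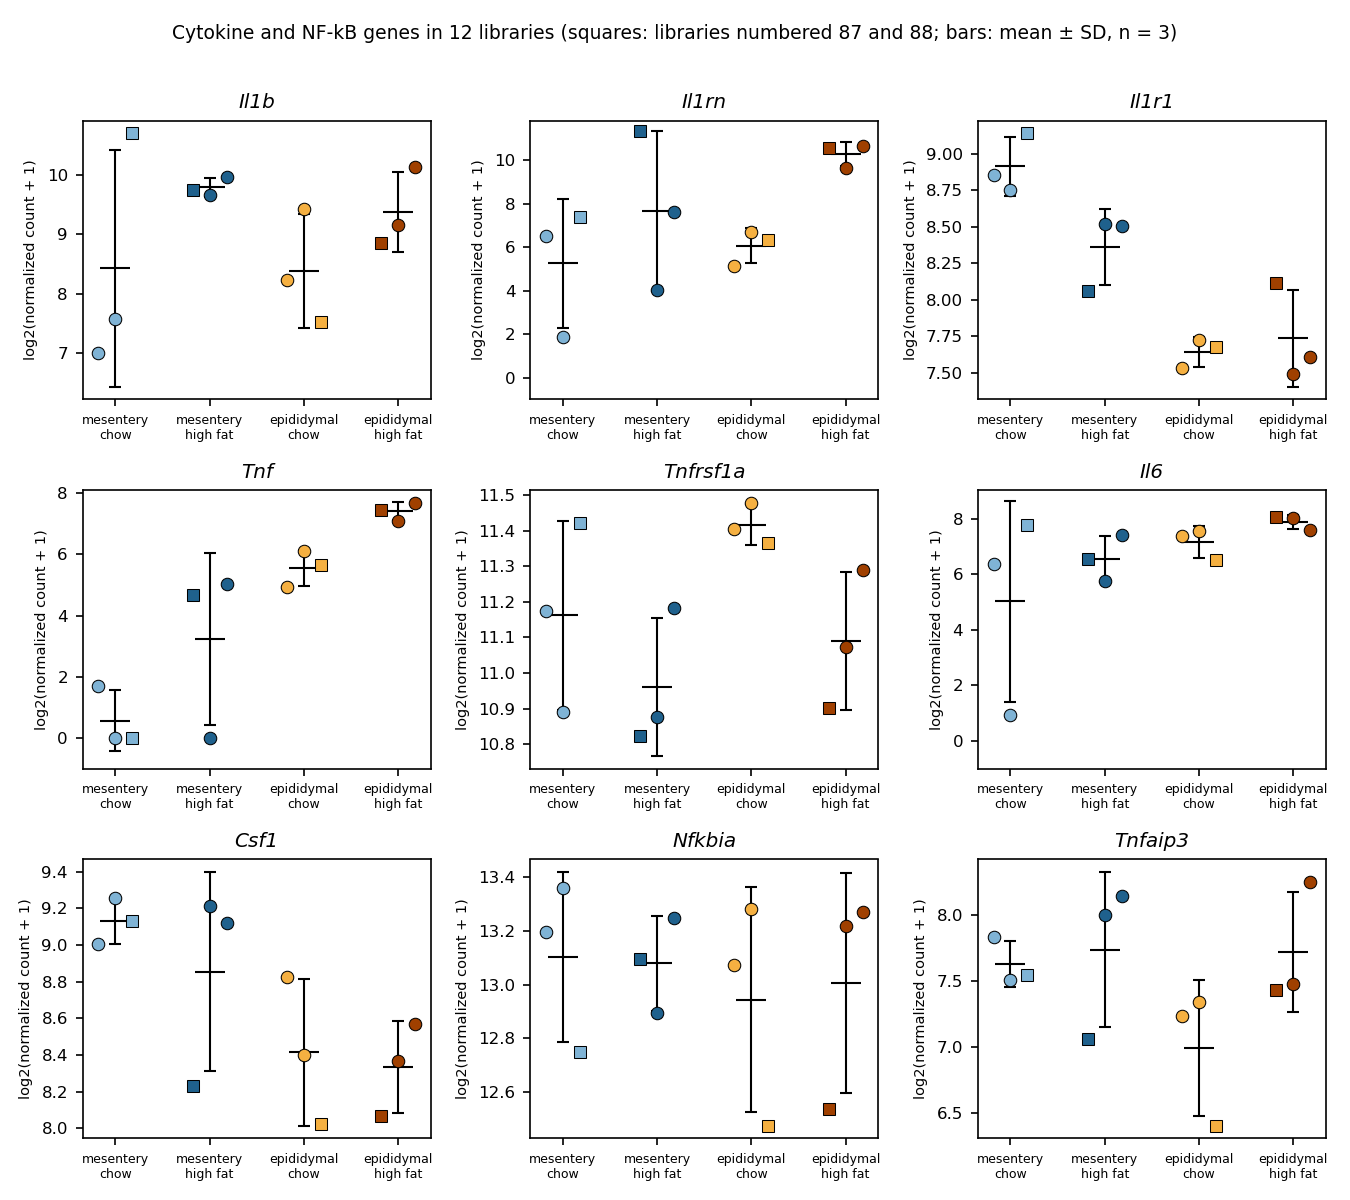
Levels of the 9 genes as log2(normalized count + 1) in each of the 12 libraries, with 1 panel per gene, the 4 groups on the horizontal axis and the libraries A, B and C from left to right within a group; bars are mean ± SD (n = 3), squares are the libraries numbered 87 and 88, and the vertical ranges differ between panels. Tnf lies at or near 0 in NC Mes and above 4 in all 6 epididymal libraries, and the Il1r1 libraries of NC Mes lie above those of both epididymal groups.

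Il1b encodes interleukin-1 beta, made as a precursor that caspase-1 cuts, and its level varied widely within groups. The NC Mes libraries A, B and C held 127.5, 189.1 and 1664 normalized counts (660.3 ± 870.0, SD, n = 3), and the HFD Mes libraries 852.9, 810.8 and 997.9 (887.2 ± 98.2). NC Mes library C thus stood above all 3 HFD Mes libraries, and the other two stood below them. The NC Epi libraries held 297.6, 682.9 and 182.8 (387.8 ± 261.9) and the HFD Epi libraries 460.9, 567.3 and 1125 (717.9 ± 356.9), with overlapping groups. The diet difference was 1.36 in mesentery (SE 0.75, adjusted p = 0.881) and 0.99 in epididymal fat (SE 0.75, adjusted p = 1.00), neither called. The tissue differences were -0.04 on chow (adjusted p = 0.983) and -0.41 on the high fat diet (adjusted p = 0.866). In libraries 50 to 53 alone the chow difference turned to 1.53 and was called (adjusted p = 0.0338), within a range of 0.0338 to 0.997 over the 24 alternatives. Among those libraries the mesenteric diet difference was 2.53, and between the single libraries 88 and 87 it was -0.96, of the opposite sign. The annotation of GRCm38 places the antisense gene Il1bos over Il1b, and without a stated strand setting reads of the pair cannot be told apart.

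Il1rn encodes the interleukin-1 receptor antagonist, a secreted protein that occupies the receptor without signalling. Its libraries held 34.5, 103.4 and 79.7 normalized counts in NC Epi (72.5 ± 35.02) and 1515, 799.4 and 1598 in HFD Epi (1304 ± 439). The groups did not overlap, and the lowest HFD Epi library was far above the highest NC Epi library. This was the largest diet difference among the 9 genes, 4.22 on the log2 scale (SE 1.54, 95% interval 0.89 to 7.55), and it was not called, with an unadjusted p of 0.0168 and an adjusted p of 0.425. Il1rn held 88.8, 2.7 and 164.7 in NC Mes (85.4 ± 81.1) and 2605, 15.2 and 195.6 in HFD Mes (938.5 ± 1446). HFD Mes library A stood apart there, library B of both groups held the fewest, and the groups overlapped (difference 2.41, SE 1.54, adjusted p = 0.903).

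The spread shared by all 4 groups in the fit includes that of the mesenteric libraries. A fit of the 2 epididymal groups alone, in which 0.778% of all genes were called, called Il1rn (4.22, adjusted p = 0.0109), whereas over all 24 alternatives its adjusted p ranged from 0.0109 to 1.00. Within the number ranges the Il1rn difference in epididymal fat was 4.22 among libraries 50 to 53 and 4.23 between 88 and 87. The diet differences of the 2 tissues differed by 1.81 (SE 2.18, adjusted p = 1.00), which was not called.

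Il1r1 encodes the signalling receptor of interleukin-1 and was lower in NC Epi than in NC Mes. The NC Mes libraries held 462.3, 429.2 and 563.2 normalized counts (484.9 ± 69.8) and the NC Epi libraries 184.0, 210.2 and 204.2 (199.5 ± 13.7). The groups were far apart relative to their spread: the difference was -1.27 (SE 0.23, 95% interval -1.76 to -0.78, adjusted p = 0.0027), and it was called under all 24 alternatives, with adjusted p up to 0.0229. The HFD Mes libraries held 266.5, 365.9 and 361.6 (331.4 ± 56.2) and the HFD Epi libraries 276.6, 179.2 and 193.9 (216.6 ± 52.5). HFD Epi library A lay above HFD Mes library A, with which it shares the number 88. HFD Epi libraries B and C lay below all of HFD Mes. The difference of -0.62 (SE 0.23, adjusted p = 0.123) was not called. In libraries 50 to 53 alone it was -0.96 and was called (adjusted p = 0.0167). That was the only 1 of the 24 alternatives that passed, within a range of 0.0167 to 0.352.

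Within mesentery the 3 Il1r1 libraries of HFD lay below the 3 of NC (difference -0.55, SE 0.23, unadjusted p = 0.0306, adjusted p = 0.731). In epididymal fat the diet difference was 0.09 (SE 0.23, adjusted p = 1.00). The diet differences of the 2 tissues differed by 0.65 (SE 0.32, adjusted p = 1.00). A predicted gene overlaps Il1r1 on the same strand in the GRCm38 annotation, so its reads could be split.

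Tnf encodes TNF and was the gene with the largest difference between the tissues among the 9. In NC Mes it held 2.3, 0 and 0 normalized counts, that is 2 reads in all 3 libraries together. In NC Epi it held 29.8, 67.8 and 49.0 (48.8 ± 19.0), from 164 reads. Every epididymal library was therefore above every mesenteric one on chow, and the ratio of the pooled rates was 65.1, with a 95% interval of 17.7 to 542.0 that covers counting error only. The log2 difference was 4.99 (SE 1.17, 95% interval 2.47 to 7.51, adjusted p = 0.0132).

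Tnf held 24.3, 0 and 31.6 normalized counts in HFD Mes (18.6 ± 16.6, from 58 reads) and 174.3, 134.6 and 201.7 in HFD Epi (170.2 ± 33.7, from 603 reads). The groups again did not overlap, with a difference of 4.17 (SE 1.17, 95% interval 1.65 to 6.69, adjusted p = 0.0436). This call was close to the threshold: it passed in 11 of 24 alternatives, with adjusted p from 0.0071 to 0.174, and the log2 value kept its sign in all of them. It was lost without HFD Mes library B, where the difference was 2.56 (adjusted p = 0.106), without any 1 of the HFD Epi libraries, and without NC Epi library A or B, which enter only through the shared spread. On chow the call passed in 22 of 24, and it was lost without NC Epi library B (adjusted p = 0.0656) and in the libraries numbered 50 to 53 alone (adjusted p = 0.0504).

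For diet, the Tnf libraries of HFD Epi were all above those of NC Epi, and the difference of 1.84 (SE 1.17, adjusted p = 1.00) was not called. In mesentery the difference was 2.66 (SE 1.17, unadjusted p = 0.0400, adjusted p = 0.780), with HFD Mes library B at 0. The ratio of the pooled mesenteric rates was 28.0, with a counting interval of 7.41 to 237, from 58 and 2 reads. Counting error is only part of the error here, since 1 of the 3 HFD Mes libraries held no read.

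Tnfrsf1a encodes the TNF receptor that most cell types carry, and it varied little. Its means were 2316 ± 422 normalized counts in NC Mes, 2004 ± 278 in HFD Mes, 2734 ± 109 in NC Epi and 2191 ± 296 in HFD Epi (SD, n = 3). The HFD Epi libraries all lay below those of NC Epi, with a difference of -0.33 (SE 0.18, 95% interval -0.72 to 0.06, adjusted p = 0.887). The 95% intervals of its 4 differences lay between -0.72 and 0.64. No contrast called it.

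Il6 encodes interleukin-6, which signals through Il6st, the shared receptor chain gp130. Its libraries held 82.0, 0.9 and 219.6 normalized counts in NC Mes and 93.5, 52.7 and 168.0 in HFD Mes. NC Mes library B, with 1 read, stood far below the others. Il6 held 167.6, 190.3 and 90.9 in NC Epi and 267.6, 257.7 and 191.8 in HFD Epi, where every library was above those of NC Epi, the nearest pair being 190.3 and 191.8. The diet differences were 1.54 (SE 1.23, adjusted p = 0.937) in mesentery and 0.73 (SE 1.23, adjusted p = 1.00) in epididymal fat. The tissue differences were 2.14 on chow (adjusted p = 0.316) and 1.32 on the high fat diet (adjusted p = 0.659), and none of the 4 was called. Without NC Mes library B the mesenteric diet difference turned to -0.51 and the chow tissue difference was 0.0861.

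Csf1 encodes macrophage colony stimulating factor, which macrophages need to survive and divide. Its means were 561.7 ± 48.8 normalized counts in NC Mes, 482.3 ± 160 in HFD Mes, 349.4 ± 97.3 in NC Epi and 325.2 ± 55.7 in HFD Epi. Every NC Epi library was below every NC Mes library, and the difference of -0.72 (SE 0.28, unadjusted p = 0.0230, adjusted p = 0.119) was not called. With the number range of the libraries as a covariate its adjusted p was 0.0376, within a range of 0.0376 to 0.268 over the alternatives. The diet differences were -0.28 (SE 0.28, adjusted p = 0.952) and -0.08 (SE 0.28, adjusted p = 1.00). In the plot of the libraries the numbers 87 and 88 hold the lowest Csf1 value in 3 of the 4 groups.

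Nfkbia and Tnfaip3 are the feedback inhibitors, and neither was called in any contrast. Nfkbia ranged from 5696 to 10512 normalized counts over the 12 libraries, with group means of 8926 ± 1852, 8690 ± 1055, 8088 ± 2176 and 8439 ± 2172 for NC Mes, HFD Mes, NC Epi and HFD Epi. Its 4 differences lay between -0.16 and 0.06, and their 95% intervals between -0.74 and 0.65. Tnfaip3, which encodes the ubiquitin-editing protein A20, had group means of 197.8 ± 25.05, 223.5 ± 79.7, 131.6 ± 41.9 and 217.5 ± 74.0 in the same order. All 3 HFD Epi libraries lay above those of NC Epi, with a difference of 0.73 (SE 0.36, 95% interval -0.04 to 1.49, adjusted p = 0.777). Its NC Epi libraries lay below those of NC Mes, with a difference of -0.63 (SE 0.36, adjusted p = 0.304).

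**Figure D2:**
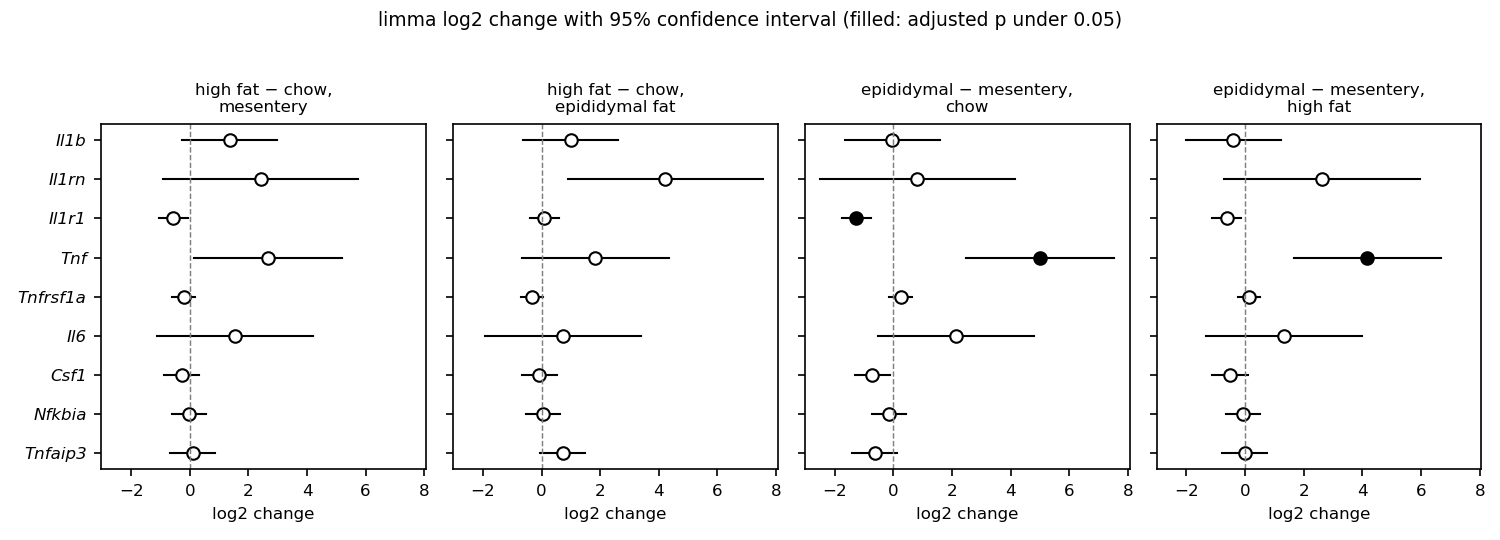
Differences of the 9 genes on the log2(normalized count + 1) scale, with 95% confidence intervals from limma, in 4 panels for the 2 diet and the 2 tissue comparisons; filled points have an adjusted p under 0.05. Points are filled for Il1r1 (-1.27) and Tnf (4.99) on chow and for Tnf (4.17) on the high fat diet, and the intervals of Il1rn, Tnf and Il6 are wider than those of the other 6 genes.

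The groups did not overlap for 1 of 9 genes for diet in mesentery, where 9.61% of all genes did not overlap; the gene was Il1r1. For diet in epididymal fat it was 5 of 9 genes, against 13.5% of all genes: Il1rn, Il6, Tnf and Tnfaip3 with higher libraries in HFD Epi and Tnfrsf1a with lower ones. For tissue it was 4 of 9 on chow (Tnf higher in epididymal fat, Il1r1, Csf1 and Tnfaip3 lower), against 28.7% of all genes. On the high fat diet it was 2 of 9 (Il6 and Tnf, both higher in epididymal fat), against 26.4% of all genes. None of the 5 genes of the epididymal diet comparison passed the adjusted threshold there.

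Per kilobase of exon, with exon lengths from the GENCODE annotation of GRCm38, the mean levels over the 4 groups ran from 26.7 normalized counts per kilobase for Tnfaip3 through 36.4 for Tnf, 48.4 for Il1r1, 61.2 for Il6, 81.4 for Csf1, 108 for Il1rn and 348 for Il1b to 892 for Tnfrsf1a and 5302 for Nfkbia. In each of the 4 groups the mean of Nfkbia was the highest and that of Tnfrsf1a the next. The order of the other genes changed between groups: per kilobase Tnf was at 0.46 in NC Mes and 103.8 in HFD Epi, against 27.4 and 30.1 for Tnfaip3, and Il1rn ranged from 13.1 in NC Epi to 235.7 in HFD Epi. The per-kilobase library values of neighbours in this order overlapped, except that all Nfkbia values lay above those of Tnfrsf1a.

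Of the 9 genes Tnf had the highest correlation with the macrophage markers over the 12 libraries, but not after the group means were removed. Over the 12 libraries, which share depth and group, the correlation of the log2 level with that of the summed macrophage markers was 0.82 for Tnf, 0.74 for Il1rn, 0.63 for Il6 and 0.54 for Il1b (Pearson; Spearman 0.86, 0.76, 0.83 and 0.48). It was -0.61 for Il1r1, -0.56 for Csf1, 0.02 for Nfkbia, 0.10 for Tnfrsf1a and 0.19 for Tnfaip3. With the 12 endothelial markers the correlation was -0.80 for Tnf, -0.63 for Il1rn, -0.62 for Il6 and -0.24 for Il1b, and with 18 immediate early genes 0.58, 0.44, 0.45 and 0.40. After the group means were removed the correlation with the macrophage markers was 0.81 for Il1b, 0.58 for Tnfrsf1a, 0.48 for Il1rn, 0.43 for Il6 and 0.39 for Tnf. It was then 0.32 for Tnfaip3, 0.27 for Nfkbia, 0.22 for Il1r1 and 0.0046 for Csf1. With the immediate early genes it was 0.63 for Il1b, 0.62 for Nfkbia, 0.48 for Tnfrsf1a and -0.44 for Il1r1. For the other genes it lay between 0.16 (Tnf) and 0.34 (Csf1). With the endothelial markers it was 0.69 for Nfkbia and -0.30 for Il1b. For Il1r1 the correlation with the endothelial markers was 0.61 over the 12 libraries and -0.70 after the group means were removed. NC Mes library C, which held the most Il1b of all 12 libraries, had 12732 normalized counts of macrophage markers against 2283 and 2822 in libraries A and B. Its neutrophil markers summed to 627.9 against 181.1 and 56.4. Its T and B cell markers summed to 1014 against 216.4 and 316.3, and its dendritic cell markers to 8049 against 3957 and 3635. It also had the fewest reads, 8348897. The HFD Epi libraries, at 158343 to 402728 counts of macrophage markers, all held less Il1b than NC Mes library C. Between the tissues 5 of 15 macrophage markers were called higher in epididymal fat on chow and 11 of 15 on the high fat diet. Of all genes 12.8% and 8.34% were called there in either direction. Over the alternatives the macrophage marker counts ran from 1 to 13 and from 3 to 13, with 4 and 6 by edgeR. For diet limma called 0 of 15 in either tissue, with 7 at an unadjusted p under 0.05 and a median difference of 1.68 in mesentery, and 13 and 2.89 in epididymal fat. Of all genes 6.15% and 6.94% had an unadjusted p under 0.05. For these 15 markers edgeR called 0 and 0, and DESeq2 1 and 3. Of all 22238 genes edgeR called 1 and 29 in these contrasts, and DESeq2 154 and 546. Of the 10 markers of lipid-associated macrophages, 4 were called higher in HFD Epi than in NC Epi, against 0.549% of all genes called for that contrast. This count was not followed over the alternatives. Gpnmb, a gene of that list, held 116.7, 87.7 and 152.2 normalized counts in NC Epi and 51466, 13675 and 37943 in HFD Epi. In HFD Mes Gpnmb held 7900, 5.5 and 75.1, and library A was also the high one for Il1rn. Gpnmb is among the 3 genes found most like Il1rn in pattern, so this likeness is no separate observation. In HFD Mes libraries A, B and C the whole list summed to 88501, 52491 and 66904. The macrophage markers summed there to 22164, 7289 and 31616.

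**Figure D3:**
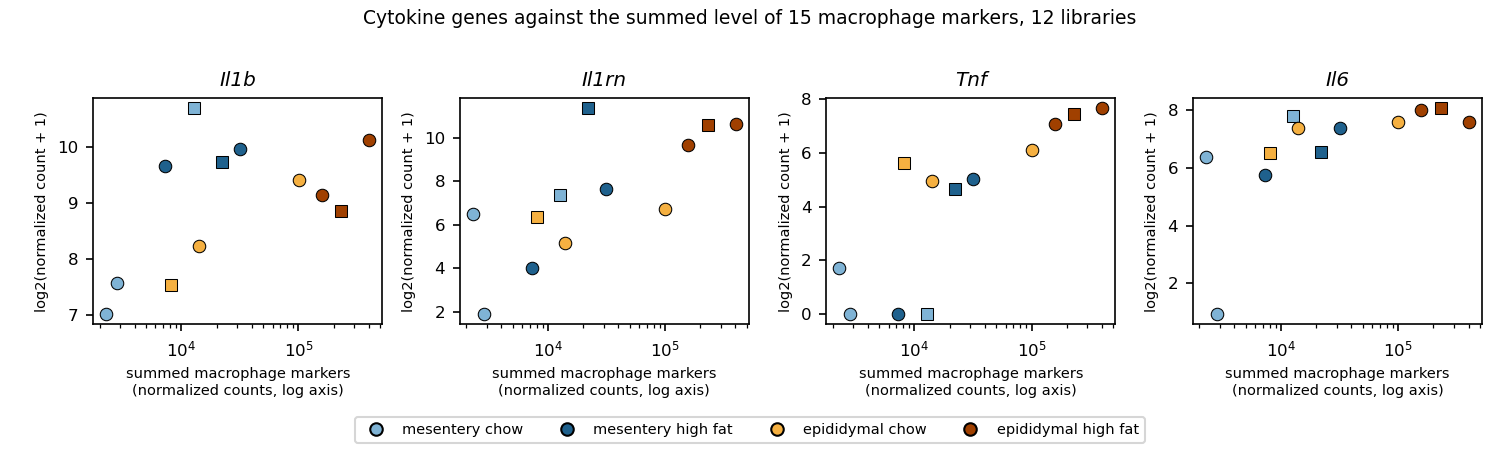
Levels of Il1b, Il1rn, Tnf and Il6 as log2(normalized count + 1) against the summed normalized counts of 15 macrophage markers (log axis) in the 12 libraries, coloured by group, with squares for the libraries numbered 87 and 88. The 3 HFD Epi libraries lie farthest right, at 158343 to 402728, and hold the 3 highest Tnf values.

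Likeness of pattern was searched over 9834 genes averaging at least 100 normalized counts, and 2 or 3 of the 3 whose log2 level correlated best with each of the 9 genes over the 12 libraries are named. Il1b ran with Plac8 (0.90), Tmem185b and Ms4a4c, and Il1rn with Alcam (0.93), Gpnmb and Atp6v0d2. Tnf ran with Ms4a7 (0.96), Mest and Ccnb2, Il1r1 with Rspry1 (0.97), Krit1 and Gga3, and Tnfrsf1a with Insig1 (0.92), Ier3 and Fdft1. Il6 ran with Fhl2 (0.88) and Kirrel3, and Csf1 with Fam114a1 (0.94), Kin and Fbxo7. Nfkbia ran with Mrfap1 (0.94), Tgoln1 and Leprot, and Tnfaip3 with Fem1c (0.93) and Samhd1. These are the highest of many correlations and are given as a description.

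The wider pathway was described with 11 lists, 10 of ligands, receptors, kinases, inhibitors and targets and 1 of 18 immediate early genes, the 9 genes included, with 135 of 140 distinct genes tested. For diet 0 of 135 were called in mesentery, with 12 (8.89%) at an unadjusted p under 0.05, and 0 of 135 in epididymal fat, with 20 (14.8%) at an unadjusted p under 0.05. Over all genes those shares were 6.15% and 6.94%. The difference of the diet effects was called for 0 of 135 genes by limma, edgeR and DESeq2, with 6 at an unadjusted p under 0.05. For diet edgeR called 0 of the 135 in both tissues, against 1 and 29 of all 22238 genes. DESeq2 called 3 in mesentery (Traf1, Csf1r and Csf2ra, all higher), against 154 of all genes. In epididymal fat it called 7, against 546 of all genes. Among the 7 were Tnfrsf1b, Casp1, Pycard and Ccl2, all higher on the high fat diet. These names were chosen after their values were seen. The median difference of the 135 genes was 0.09 in mesentery, against 0.00 for all genes tested, and 0.22 in epididymal fat, against 0.10.

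Tnfrsf1b, the second TNF receptor, came nearest to a diet call in the main test. It held 370.4, 484.8 and 259.4 normalized counts in NC Epi and 747.6, 642.5 and 1171 in HFD Epi, with no overlap (difference 1.20, adjusted p = 0.0597). In mesentery it differed by 0.16 (adjusted p = 0.971). The receptor chains Il1rap and Il6st, the transcription factor Rela and the adhesion molecule Icam1 had diet differences between -0.27 and 0.23 in the 2 tissues. None was called. Other partners did not overlap for diet in epididymal fat, as did 13.5% of all genes. Nfkb1, Nfkb2 and Csf1r were higher in HFD Epi and Il34 was lower, and limma called none of them. Il1a, Il1r2, Il6ra, Relb, Chuk, Ikbkb, Ikbkg and Sele overlapped there. In mesentery Csf1r was also higher without overlap, against 9.61% of all genes.

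Between the tissues 29 of the 135 genes were called on each diet, with 19 genes called on both. Over the alternatives the counts ran from 14 to 41 on chow and from 11 to 39 with HFD. The immediate early list gave 4 of the calls for NC and 5 for HFD. On chow 16 were higher in epididymal fat and 13 lower, a share of 21.5% against 12.8% of all genes. On the high fat diet 17 were higher and 12 lower, again 21.5%, against 8.34% of all genes; with every library scaled to the same total the split there was 8 higher and 15 lower. edgeR called 7 higher and 9 lower for NC, and 5 higher and 6 lower for HFD. The list medians were 0.14 on each diet, against -0.08 and 0.06 for all genes. The colony stimulating factor list had 4 of 8 tested genes higher on chow and 3 of 8 on the high fat diet, and the list of NF-kB subunits and IkB kinases had 3 of 15 lower on each diet and 0 higher. Of the 16 genes named from these lists by their adjusted p on each diet, 11 for chow and 8 for the high fat diet were called in all 24 alternatives, the others in at least 18, and all kept their sign.

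**Figure D4:**
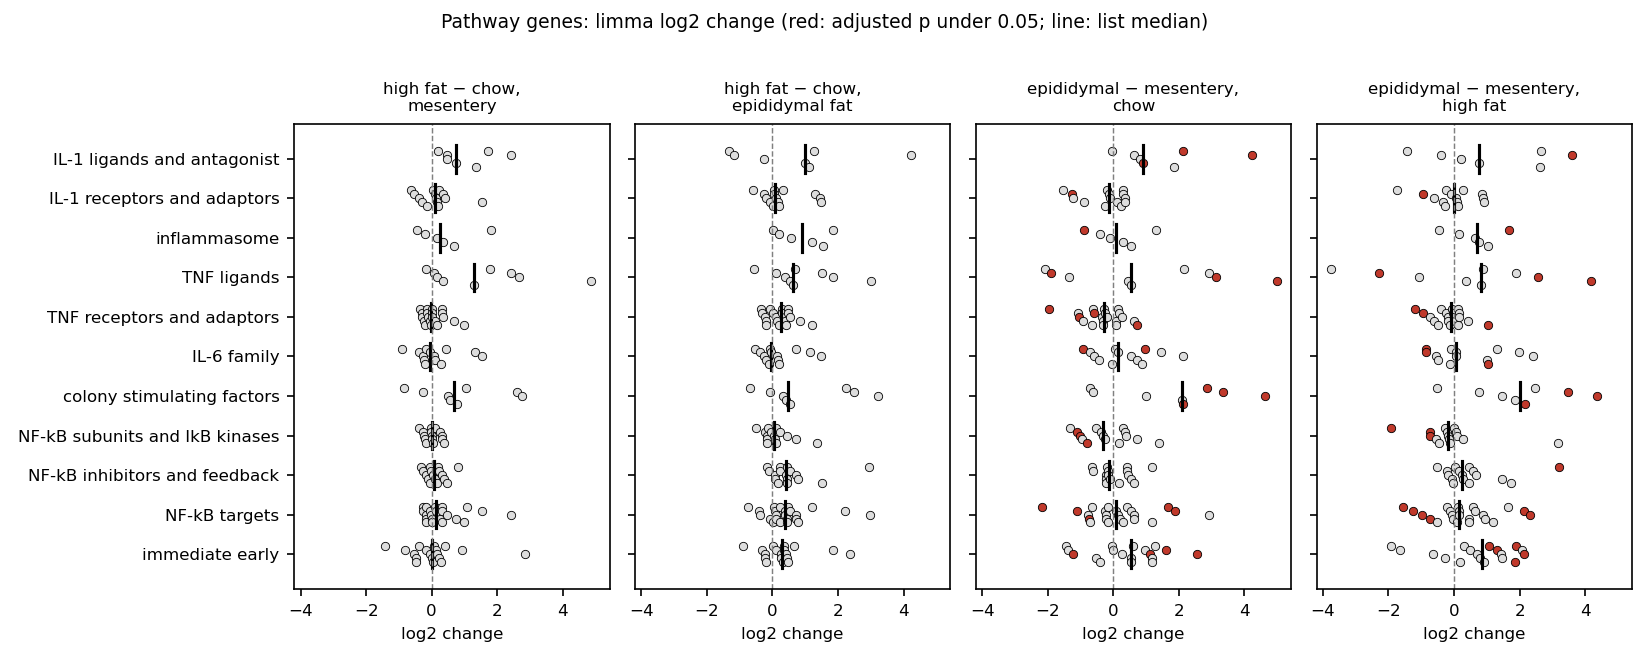
Differences of the genes of the 11 pathway lists on the log2(normalized count + 1) scale in the 2 diet and the 2 tissue comparisons; a point is a gene, red points have an adjusted p under 0.05 and black lines mark list medians. No point is red in the diet panels, and in each tissue panel 29 distinct genes are red on both sides of 0, some of them standing in more than 1 list.

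Several ligands and receptors were among the genes called higher in epididymal fat. Csf1r, the receptor of Csf1 and a macrophage gene, held 14.8, 5.4 and 23.9 normalized counts in NC Mes and 289.8, 1031 and 127.7 in NC Epi (difference 4.64, SE 0.80, adjusted p = 0.0020), and it was also called on the high fat diet (4.37, adjusted p = 0.0045). Il34, the other ligand of that receptor, held 17.1, 43.9 and 67.6 against 423.7, 367.5 and 371.7 on chow (difference 3.34, adjusted p = 0.0021). On chow the libraries of Csf1r and Il34 were all higher in epididymal fat, while those of Csf1, given above, were all lower and its difference was not called. The cytokine Il18 (4.23, adjusted p = 0.0144), the neutrophil chemokine Cxcl1 (1.67, adjusted p = 0.0161), the adhesion molecule Vcam1 (1.89, adjusted p = 0.0211), the TNF family ligand Tnfsf9 (3.15) and the receptor chain Csf2rb (2.12) were also called higher on chow. On the high fat diet Cxcl1 (2.15), Csf2ra (3.48), Csf2rb (2.18), the inflammasome adaptor Pycard (1.69), the receptor Tnfrsf12a (1.03) and the immediate early genes Egr1 (1.90) and Btg2 (1.31) were called higher. The macrophage marker sums given above, Csf1r included, overlapped between the tissues on chow. They were 13987, 100399 and 8108 in NC Epi libraries A, B and C, and 2283, 2822 and 12732 in those of NC Mes. On the high fat diet they did not overlap. The means of these sums were higher in epididymal fat on both diets. So were markers of other cell types: on chow 7 of 9 fibroblast, 7 of 8 adipocyte and 7 of 9 smooth muscle and pericyte markers were called higher in epididymal fat, and with HFD 8 of 9, 1 of 8 (1 lower) and 4 of 9. Of all genes 12.8% and 8.34% were called in either direction. The sums of these 3 lists in NC Mes were 6706 to 10161, 5423 to 8215 and 1411 to 1657 normalized counts, and in NC Epi 19001 to 57833, 62873 to 84605 and 15920 to 24967. The part of these cell types in the differences, that of Tnf included, was not tested.

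Signalling components of the pathway were among the genes lower in epididymal fat. Nfkb1, which encodes the p105 precursor of an NF-kB subunit, held 1016, 1145 and 795.5 normalized counts in NC Mes and 456.6, 441.3 and 455.5 in NC Epi, a difference of -1.11 (SE 0.18, adjusted p = 0.0015). Chuk, which encodes the kinase IKK-alpha, held 1437, 1164 and 1511 against 841.1, 739.3 and 763.9, a difference of -0.80 (SE 0.16, adjusted p = 0.0043) on chow and of -0.75 on the high fat diet. For both genes all 3 NC Epi libraries lay below those of NC Mes. Tnfaip2 (-2.16), Tnfsf10, which encodes the death ligand TRAIL (-1.90), the TNF receptor adaptor Traf5 (-1.95), the kinase Tbk1 and the oncostatin M receptor Osmr (-0.93) were also called lower on chow. On the high fat diet Tnfsf10 (-2.29), Osmr (-0.87), Tnfaip2 (-1.26), the transcription factor Irf1 (-0.99), the chemokine Cx3cl1 (-1.55), Traf5 (-1.18) and the ubiquitin ligase subunit Rnf31 (-0.96) were called lower. The endothelial marker list moved the same way, with 6 of 12 genes called lower on chow and 8 of 12 on the high fat diet, and 1 called higher on each. Of all genes 12.8% and 8.34% were called in either direction. The part of the endothelial list in these differences was not tested.

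The following other partners of the 9 genes did not pass between the tissues on chow. Rela differed by 0.35 on chow (adjusted p = 0.313), Ikbkb, which encodes IKK-beta, by -0.53 (adjusted p = 0.0823), Ikbkg by -0.32 (adjusted p = 0.511), Relb by 0.29 and Nfkb2 by -0.27. The adhesion molecules Icam1 (0.14) and Sele (0.63) and the decoy receptor Il1r2 (0.36) also did not pass on chow.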

How the data were processed

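Bulk RNA-seq libraries of sorted endothelial cells were compared in 4 groups of 3, taken from the sample titles. The authors deposited 1 table of normalized counts per gene, a signal made, per the submitters' processing notes, with STAR 2.7.9a, featureCounts of Subread and DESeq2 1.34.0 on mm39; the annotation, the strand setting and any gene filter are not given in the sources used here. All values (100%) were whole reads times a step of the library, within 0.001 reads, so reads could be recovered; the lowest gene total was 51 reads. Groups were compared with limma 3.58.1 in R 4.3.3 (lmFit, eBayes with trend) on log2(normalized count + 1) for 22238 genes with a mean of at least 10, with 1 mean per group over all 12 libraries and Benjamini-Hochberg adjustment over all genes within a contrast at 0.05. edgeR 4.0.16 and DESeq2 1.42.0 on the recovered reads, other pseudocounts, filters and scalings, and left-out libraries were alternatives. The fit was also run on simulated counts with the same relative spread set for every gene. That run cannot show whether changes of genes as variable as Il1rn and Tnf would be called. Genes, lists and tests were chosen with earlier results of these data known. Besides the 9 genes, the text names up to 8 higher and 8 lower pathway genes per contrast by adjusted p, direct partners, defining markers of lists and the 3 most correlated genes, of which some are not reported here. Replicate correlations within groups were 0.743 to 0.966. Same-numbered libraries of the 2 tissues deviated from their group means with correlations of -0.15 to 0.58, and same-lettered ones of the 2 diets with -0.68 to 0.44. The numbers and letters were therefore not taken as pairs in the main fit. These correlations cannot show that same-numbered libraries are independent.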

Additional observations from a re-analysis of the deposited data

How the results depend on the processing

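Of 1071 alternative values of the 45 log2 changes of the 9 genes, 996 kept their direction and side of the threshold. Genes called for diet in mesentery (3) numbered 7 with a mean of at least 50, 1 with edgeR, 154 with DESeq2, 1 in a fit of the 2 groups alone, 20 in libraries 50 to 53, and 1 to 37 with a library left out; in epididymal fat (122) they numbered 80 with TMM factors, 29, 546 and 31 with edgeR, DESeq2 and libraries 50 to 53, and 23 to 176 with a library left out. For tissue on chow (2843) libraries 50 to 53 gave 4349 and leaving out a library 1516 to 3278; on the high fat diet (1854) edgeR gave 1021, DESeq2 2931 and leaving out a library 728 to 2508. For the difference of the diet effects (1) a mean of at least 50 gave 3, DESeq2 133, libraries 50 to 53 gave 11, and leaving out a library 1 to 20. Of the 9 genes, the epididymal diet count (0) was 1 in a fit of the 2 groups alone (Il1rn), the chow tissue count (2) ranged from 1 to 2 with a library left out, and the high fat tissue count (1, Tnf) was 0 with a pseudocount of 0.5, no filter, a mean of at least 50, equal totals, edgeR or a fit of the 2 groups alone, and 0 to 1 with a library left out. With the number range as a covariate 3, 169, 3706, 2437 and 1 genes were called in the 5 contrasts, and 0, 0, 3, 1 and 0 of the 9 genes. The gene added on chow was Csf1. In libraries 50 to 53 the tissue calls among the 9 genes were Il1r1 and Il1b on chow and Il1r1 on the high fat diet. Tnf was not called there on either diet. The cause of these changes was not tested. With the replicate block (letter for diet, number for tissue) 4, 104, 2816, 1890 and 2 genes were called in the 5 contrasts, and 0, 0, 2, 1 and 0 of the 9 genes; the block changed no call of the 9 genes. Equal totals shifted the median of all genes by 0.13, -0.14, 0.08, -0.18 and -0.27 in the 5 contrasts, and the share of higher calls from 76.2% to 63.8% for epididymal diet, from 57.2% to 67.3% for tissue on chow and from 58.9% to 35.3% on the high fat diet. Signs reversed only for changes that were not called in the fit of all 12 libraries; of the reversed values, Il1b for tissue on chow in libraries 50 to 53 passed the threshold. With equal totals these became 0.11 (Nfkbia, mesenteric diet), -0.0466 (Il1r1) and -0.0777 (Nfkbia, epididymal diet), 0.0505 (Il1b, chow tissue), -0.0582 (Tnfrsf1a, high fat tissue), and -0.0788 (Csf1) and -0.19 (Nfkbia) for the difference of the diet effects. In libraries 50 to 53 they became 0.0336 (Csf1, mesenteric diet), -0.0771 (Il1r1, epididymal diet), 1.53 (Il1b, chow tissue), 0.17 (Nfkbia, high fat tissue), and 0.19 (Tnf) and -0.18 (Csf1) for the difference. With edgeR and DESeq2 they became -0.15 and -0.24 for Il1rn (chow tissue), and for the difference 0.37 and 0.47 for Il1b and 0.52 and 0.63 for Il6; a pseudocount of 5 gave 0.12 for Tnf. With a library left out the changes whose sign reversed ranged, for mesenteric diet, from -0.51 to 2.92 for Il6, -0.46 to 0.0335 for Csf1, -0.20 to 0.11 for Nfkbia, -0.10 to 0.45 for Tnfaip3; for epididymal diet, from -0.10 to 0.22 for Il1r1, -0.28 to 0.12 for Csf1, -0.17 to 0.30 for Nfkbia; for chow tissue, from -0.75 to 1.10 for Il1b, -0.87 to 1.88 for Il1rn, -0.33 to 0.0752 for Nfkbia; for high fat tissue, from -0.20 to 0.16 for Nfkbia, -0.35 to 0.19 for Tnfaip3; for the difference of the diet effects, from -1.51 to 0.34 for Il1b, -0.0131 to 3.65 for Il1rn, -2.44 to 0.0761 for Tnf, -0.26 to 0.0099 for Tnfrsf1a, -2.20 to 1.24 for Il6, -0.11 to 0.40 for Csf1, -0.15 to 0.32 for Nfkbia. The low counts of Tnf and, in single libraries, of Il6 and Il1rn limit what depth can show.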
